A study of Mus musculus with 26 samples.

Results

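Tubulin isotypes are the separate genes that encode alpha and beta tubulin, the proteins that pair into the dimers from which microtubules are built. They were followed in cultured mouse pro-B cells after loss of Brg1, the ATPase subunit of SWI/SNF chromatin remodelling complexes, encoded by Smarca4. The 10 genes described are 4 alpha tubulins (Tuba1a, Tuba1b, Tuba1c and Tuba4a) and 6 beta tubulins (Tubb2a, Tubb2b, Tubb3, Tubb4b, Tubb5 and Tubb6). They were picked by name, with their levels in these same data already known, so their differences are a description and no test of them supports anything. All 10 were listed among the 19404 genes of the deletion table and among the 19719 genes of the knockdown table.

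Microtubules carry chromosomes in the mitotic spindle and organise transport and shape in cells that are not dividing. Newly made tubulin chains are folded by prefoldin and by the CCT chaperonin ring, and cofactors then join alpha and beta tubulin. Cells also hold tubulin supply steady through mRNA decay: when free dimers are in excess, tubulin mRNAs are destroyed while they are being translated. Isotypes differ mostly in their tails and in where they are made. Tubb5 and Tuba1b are made in most dividing cells, Tubb3 is best known as a marker of neurons, and Tubb1, which is not among the 10, is that of platelets.

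RNA was sequenced in 10 samples in 4 groups. In the deletion experiment, cells with floxed Brg1 alleles and ER-Cre (Brg1-deleted, 2 libraries) were set against cells with wild-type Brg1 alleles and ER-Cre (control, 2 libraries). Both came from C57/Bl6 bone marrow sorted for B220, grew with IL7 and SCF for 7 days, and received 0.3 µM tamoxifen, the drug that switches on ER-Cre, for the final 60 hours. For the knockdown, Rag1-/- pro-B cells, which cannot rearrange antigen receptor genes, received a retrovirus with a Brg1 shRNA (3 libraries) or a control shRNA (3 libraries) on days 3 and 4. Infected cells of both shRNA groups were enriched 2 days later on beads by the hCD25 marker. Cells of the deletion experiment had their Rag1 gene, those of the knockdown did not, so the experiments differ in more than the way Brg1 was lowered. Whether the libraries stem from different mice is not labelled, so a p-value measures only the spread between them, which may be technical.

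Each table gives 1 mean per group and gene in normalized reads, which are reads divided by a size factor per library. These are the authors' means, and they carry no SD. In the deletion experiment the means of most genes could be split back into the whole reads of their 2 libraries. Over the listed genes the Brg1-deleted libraries summed to 11575568 (deeper) and 8792902 (shallower) reads, and the control libraries to 10761963 (deeper) and 10218888 (shallower). Where a mean had several solutions, the one with the most equal normalized reads in both libraries was taken, so these totals are partly assumed. In 7 members the split had 1 solution, and their values are given by library. It did not have 1 solution in Tuba1b, Tubb4b or Tubb5, the 3 most abundant.

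Smarca4 itself had an authors' mean of 6067 normalized reads in Brg1-deleted cells and 17898 in control cells, 2.95-fold lower (adjusted p = 0.0008 in the authors' deposited table). In Rag1-/- cells its mean was 6743 with the Brg1 shRNA and 13340 with the control shRNA, 1.98-fold lower (adjusted p = 0.0472 in the authors' deposited table). The targeted gene was thus lower in both experiments, by a smaller fold in the knockdown.

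A call below means an adjusted p under 0.05 in the authors' deposited table. Of the 10 tubulins, 2 were called after Brg1 deletion, Tubb3 and Tuba4a, both lower. Among all 19404 genes, 1.47% were called, 0.742% lower and 0.732% higher. After Brg1 knockdown, 0 of the 10 were called, where 0.218% of 19719 genes were, 0.0406% lower and 0.177% higher. Because the members were chosen on these values, nothing is read from their share. The median log2 fold change of the 10, Brg1-deleted over control, was -0.48, with 7 below 0 and 3 above, against -0.00 over all genes. This median rests partly on members that could not be split, so it was not recomputed with a library left out. Over the 7 that could be split the median was -0.26, and between -0.080 and 0.17 when 1 library was left out at a time. The direction of the 7-member median is thus not firm, and that of the 10-member median was not checked by library. In the knockdown the median was -0.26, with 8 below 0 and 2 above, again against -0.00 over all genes. Of the 10 members, 6 (60%) lay below 0 in both experiments, as did 35.6% of the 17846 genes found in both tables.

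**Figure D1:**
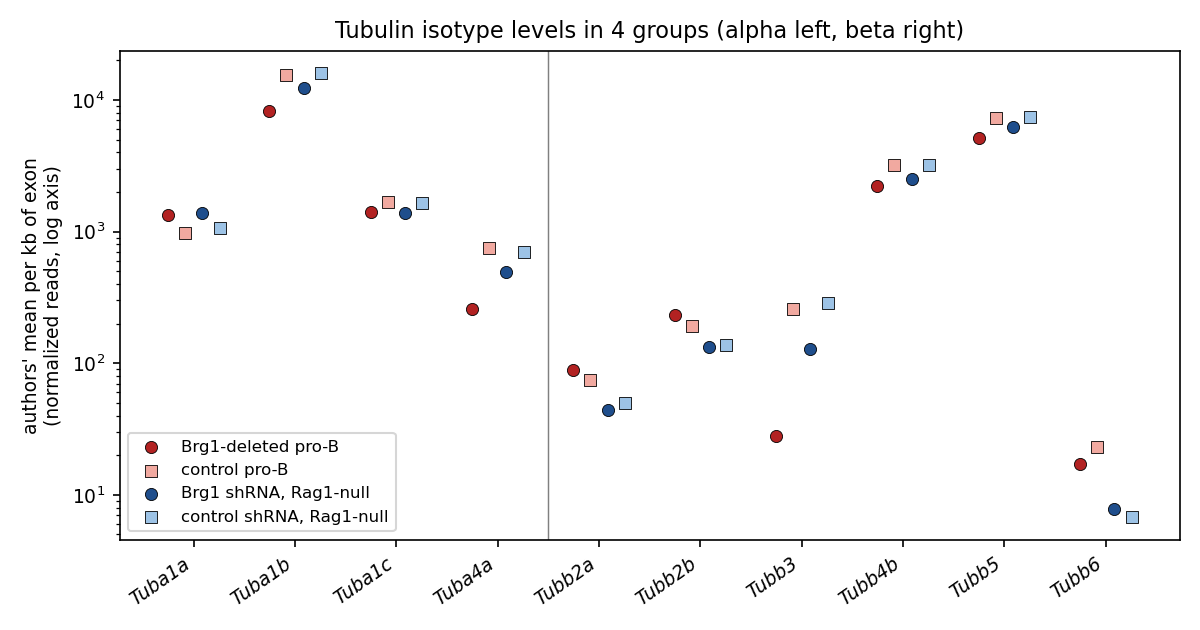
Authors' mean per kilobase of exon, in normalized reads on a log axis, for each tubulin isotype in the 4 groups, with alpha tubulins on the left and beta tubulins on the right. Circles are Brg1-depleted groups and squares their controls. Tuba1b and Tubb5 lead their families in all 4 groups, and Tubb3 shows the widest gap, 27.8 in Brg1-deleted cells and 259 in control cells.

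The alpha tubulin transcripts were dominated by Tuba1b, the main alpha tubulin of dividing cells. Its gene lies on chromosome 15 at 98931425 to 98934565 (mm10, minus strand), in a cluster with Tuba1a and Tuba1c. Tuba1b had an authors' mean of 15449 normalized reads in Brg1-deleted cells and 29192 in control cells, a log2 fold change of -0.92. The authors' deposited table gives it p = 0.0033 and an adjusted p of 0.1429, so it was not called. With the Brg1 shRNA its mean was 23029, against 30042 with the control shRNA, a log2 fold change of -0.38. In read number this was the widest change of any member: in controls 99.95% of all genes had a lower mean than Tuba1b.

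Tuba1a, the alpha tubulin best known from developing neurons, lies 15.275 kb from Tuba1b, and it had the opposite sign. Its recovered values were 2272 (deeper) and 2096 (shallower) normalized reads in the Brg1-deleted libraries and 1614 and 1609 in the control libraries. Both Brg1-deleted libraries were thus above both controls, which lay close together. The log2 fold change was 0.44 (adjusted p = 1 in the authors' deposited table). The authors' means in Rag1-/- cells were 2260 with the Brg1 shRNA and 1761 with the control shRNA, a log2 fold change of 0.36. Tuba1a was the only member above 0 in both experiments.

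Tuba1c, the third gene of the cluster, lies 76.339 kb beyond Tuba1a on the other strand. It had 2303 and 3270 normalized reads in the deeper and shallower Brg1-deleted libraries, and 3735 and 2945 in the deeper and shallower control libraries. The groups overlapped. The log2 fold change was -0.26 in both experiments. The coding sequences of Tuba1a, Tuba1b and Tuba1c are near copies of each other, so reads may have been shared out between them, and each of their values is uncertain in that respect. Their summed authors' means, which such sharing leaves as it is, were 20419 normalized reads in Brg1-deleted cells and 34143 in control cells, a log2 difference of -0.74. The same sums in Rag1-/- cells were 28005 with the Brg1 shRNA and 35055 with the control shRNA, a log2 difference of -0.32.

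Tuba4a encodes an alpha tubulin that, unlike most others, is made without the final tyrosine, and it stands alone on chromosome 1 (75214974 to 75219253, minus strand). It had 438 (deeper) and 619 (shallower) normalized reads in the Brg1-deleted libraries and 1716 and 1372 in the control libraries. All control values lay above both Brg1-deleted values, and the ratio of a control to a Brg1-deleted library ran between 2.22 and 3.92. The means were 528 in Brg1-deleted cells and 1544 in control cells, 2.92-fold lower, with a log2 fold change of -1.55 (adjusted p = 0.0021 in the authors' deposited table). With the Brg1 shRNA the mean was 1013, against 1430 with the control shRNA, a log2 fold change of -0.50 (p = 0.0685, adjusted p = 1 in the authors' deposited table). Tuba4a overlaps Stk16, a kinase gene on the other strand. Stk16 had a mean of 583 in Brg1-deleted cells and 610 in control cells, a log2 fold change of -0.07.

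Beta tubulin transcripts were led by Tubb5, the main beta tubulin of dividing cells, and by Tubb4b, which is also widely made. Tubb5 (chromosome 17, 35833926 to 35838306, minus strand) had an authors' mean of 17094 normalized reads in Brg1-deleted cells and 24229 in control cells, a log2 fold change of -0.50. Tubb4b (chromosome 2, 25222160 to 25224702, minus strand) had 4666 in Brg1-deleted cells and 6651 in control cells, a log2 fold change of -0.51. Neither was called, with an adjusted p of 0.8699 for Tubb5 and 0.85 for Tubb4b in the authors' deposited table. The changes of these major isotypes were close to each other in both experiments. Among Rag1-/- cells Tubb5 had 20584 with the Brg1 shRNA and 24820 with the control shRNA, a log2 fold change of -0.27. Tubb4b had 5259 with the Brg1 shRNA and 6677 with the control shRNA, a log2 fold change of -0.34. Tubb4b overlaps Fam166a on the other strand, a gene listed at 1.59 in Brg1-deleted and 7.39 in control cells.

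Tubb3, the neuronal beta tubulin isotype, showed the widest fold change of the 10. Its gene lies on chromosome 8 at 123411424 to 123422015 (mm10, plus strand). The Brg1-deleted libraries had 63.1 (deeper) and 40.7 (shallower) normalized reads, from 73 and 35 reads. The control libraries had 432 (deeper) and 537 (shallower), from 443 and 537 reads. Every control value lay far above both Brg1-deleted values, and the ratio of a control to a Brg1-deleted library ran between 6.85 and 13.2. The means were 51.9 in Brg1-deleted cells and 485 in control cells, 9.34-fold lower, with a log2 fold change of -3.22 (adjusted p = 1.43e-10 in the authors' deposited table). Counted from the lowest log2 fold change of the table, it stood at rank 52 of 19404. After knockdown the mean was 237 with the Brg1 shRNA and 534 with the control shRNA, 2.25-fold lower, with a log2 fold change of -1.17, at rank 971 of 19719. The authors' deposited table gives this knockdown difference p = 0.3717 and an adjusted p of 1. Within each experiment the Tubb3 mean was lower in the Brg1-depleted group, by a smaller fold after knockdown. Its levels are not compared between the experiments, whose cells and total normalized reads differ. A graded response of Tubb3 to Brg1 loss was not tested.

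With 2 libraries a group, limma on the recovered reads called 0 of the 7 resolved members and 0 of 17139 genes. Unadjusted p-values lay under 0.05 in 3 members, Tubb3, Tuba4a and Tuba1a, and in 2911 genes. Its adjusted p was 0.12 for Tubb3 and 0.13 for Tuba4a, so the calls of these genes rest on the authors' own test. When 1 library was left out at a time, its arm held 1 library, which was assumed to vary like the other group. Without the shallower control library limma called 57 genes, Tubb3 among them (adjusted p = 0.037) and Tuba4a not (adjusted p = 0.062). In each of the other 3 fits it called 0 genes, with an adjusted p for Tubb3 of 0.125 without the deeper control, 0.375 without the deeper Brg1-deleted and 0.303 without the shallower Brg1-deleted library. The groups did not overlap in 3 of the 7, Tubb3 and Tuba4a lower and Tuba1a higher, and among the 17139 genes with 1 solution in both groups and a mean of at least 1 they did not overlap in 48.4%, 23.9% lower and 24.5% higher.

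**Figure D2:**
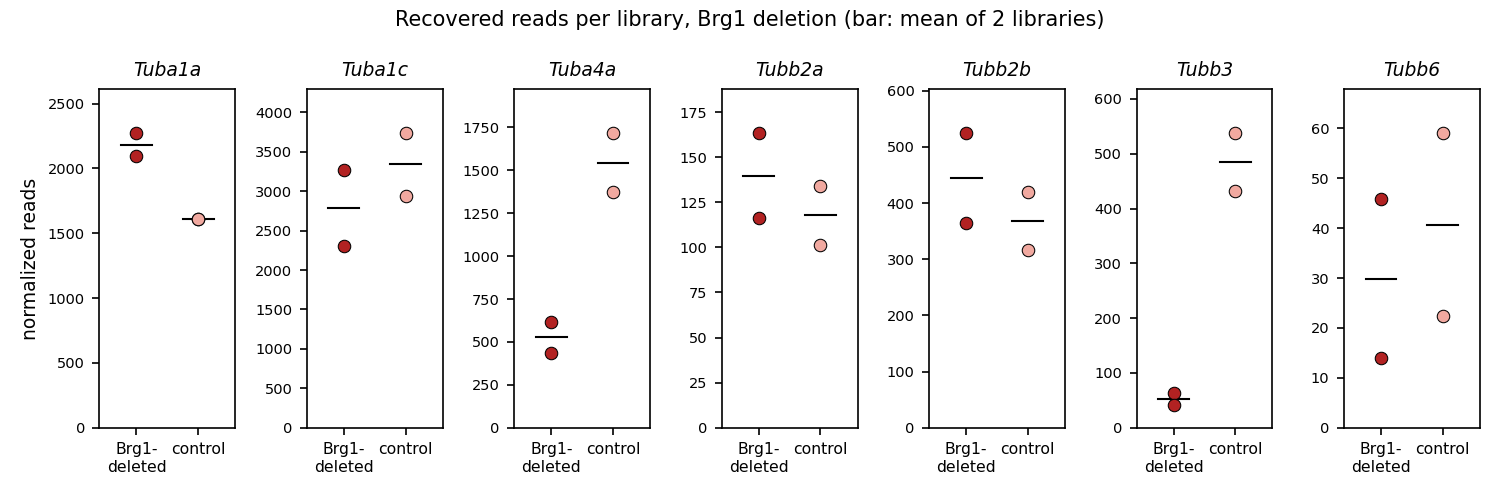
Normalized reads per library of the 7 tubulins whose means could be split, with Brg1-deleted libraries on the left of each panel and control libraries on the right. Points are libraries, bars are the means of 2, and each axis starts at 0. The Brg1-deleted points of Tubb3 (40.7 and 63.1) and of Tuba4a (438 and 619) lie below both controls, while those of Tuba1c, Tubb2a, Tubb2b and Tubb6 overlap the controls.

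Tubb2a and Tubb2b, near copies of each other that lie 48.999 kb apart on chromosome 13, are beta tubulins best known from the nervous system. Tubb2a had 163 and 116 normalized reads in the deeper and shallower Brg1-deleted libraries, and 101 and 134 in the deeper and shallower control libraries. Tubb2b had 524 and 365 in the same Brg1-deleted libraries, and 419 and 317 in the control libraries. The groups overlapped for both genes, and in all 4 libraries Tubb2b was the more abundant. As reads may have been shared out between them, their sum is the firmer value: 585 in Brg1-deleted and 486 in control cells, a log2 difference of 0.27. After knockdown the sum was 325 with the Brg1 shRNA and 343 with the control shRNA, a log2 difference of -0.08. By their means, these beta isotypes, also known from neurons, did not share the sign of Tubb3 after deletion. That sign is not firm: without the deeper Brg1-deleted library the log2 fold changes were -0.02 (Tubb2a) and -0.01 (Tubb2b). After knockdown they were -0.19 (Tubb2a) and -0.05 (Tubb2b), with the sign of Tubb3.

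Tubb6, the least abundant member, is a beta tubulin of many cells outside the nervous system, on chromosome 18 (67390717 to 67402748, plus strand). It had 45.8 (deeper) and 14.0 (shallower) normalized reads in the Brg1-deleted libraries, from 53 and 12 reads, and 22.4 (deeper) and 59.0 (shallower) in the control libraries, from 23 and 59 reads. The libraries of a group differed more than the groups did. Marker genes of mast cells and basophils, which are not pro-B cells, moved with it: their 9 listed genes summed to 911 and 265 in the deeper and shallower Brg1-deleted libraries and to 256 and 845 in the deeper and shallower control libraries. Cpa3, the mast cell protease with the highest mean of that list, had 266 and 82.6 in the Brg1-deleted libraries and 100.4 and 252 in the control libraries. Macrophage genes among the myeloid markers showed the same order of libraries: Cd68, C1qa, C1qb, C1qc, Adgre1 and Csf1r, 6 genes, summed to 1492 and 369 in the deeper and shallower Brg1-deleted libraries and to 428 and 1843 in the deeper and shallower control libraries. These 6 were picked after their values were seen. Of the other myeloid markers, S100a8, S100a9 and Elane had the reverse order in both groups. S100a8 had 0.864 and 134 in the deeper and shallower Brg1-deleted libraries, and 208 and 13.0 in the control libraries. Stromal markers without Fn1 shared the order of Tubb6, with 61.3 and 14.0 in the Brg1-deleted and 26.3 and 81.1 in the control libraries. The order was thus not particular to mast cells and macrophages. The part of these cell types in the Tubb6 values was not tested. In bulk RNA, fewer cells of a type and less RNA per cell cannot be told apart. In the knockdown the control shRNA libraries had 13.5, 15.1 and 6.83 normalized reads of Tubb6. The Brg1 shRNA mean of 13.7 had 2 solutions, 11.7, 9.62 and 19.7 or 28.8, 7.00 and 5.18, and both overlap the controls.

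**Figure D3:**
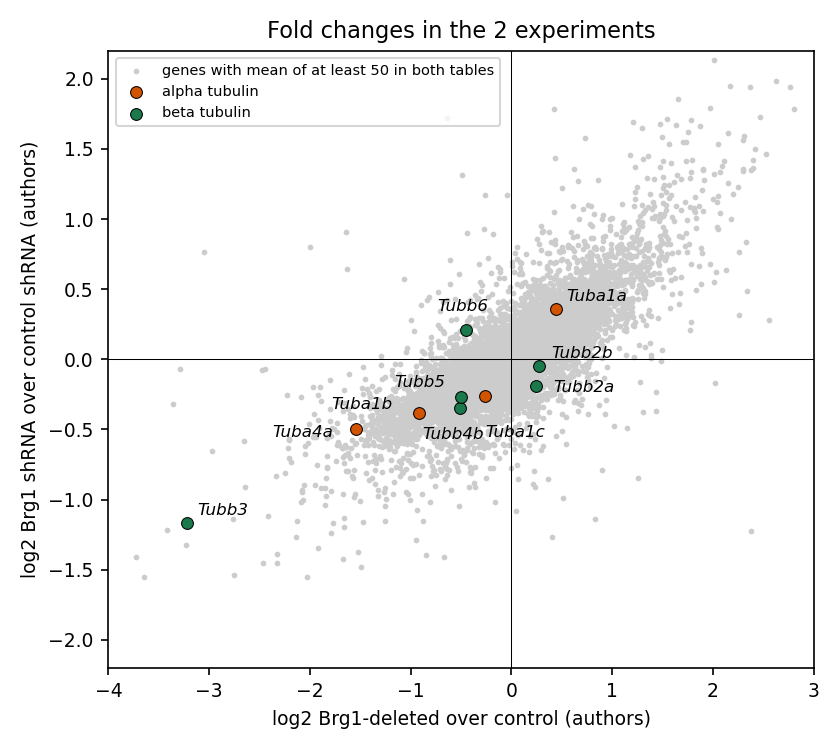
Log2 fold changes in the authors' deposited tables, Brg1-deleted over control on the horizontal axis and Brg1 shRNA over control shRNA on the vertical axis. Orange points are alpha tubulins, green points beta tubulins, and grey points all genes with a mean of at least 50 in both tables. Tubb3 lies at -3.22 and -1.17, Tuba4a at -1.55 and -0.50, and Tuba1a at 0.44 and 0.36.

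The order of the isotypes was compared as normalized reads per kilobase of exon, the level that allows genes of different length to be set side by side. In control cells it ran Tuba1b (15569), Tubb5 (7294), Tubb4b (3185), Tuba1c (1690), Tuba1a (978), Tuba4a (752), Tubb3 (259), Tubb2b (192), Tubb2a (74.3) and Tubb6 (23.2). Among the 7 members with values by library, no neighbours in this order overlapped between the control libraries. In Brg1-deleted cells the order ran Tuba1b (8239), Tubb5 (5146), Tubb4b (2234), Tuba1c (1410), Tuba1a (1326), Tuba4a (257), Tubb2b (231), Tubb2a (88.2), Tubb3 (27.8) and Tubb6 (17.0). Here 3 pairs of neighbours overlapped between libraries. Tuba1c had 1165 and 1654 per kilobase and Tuba1a 1380 and 1272. Tuba4a had 213 and 301 and Tubb2b 273 and 190. Tubb3 had 33.8 and 21.8 and Tubb6 26.1 and 7.94. In Brg1-deleted cells Tubb3 thus overlapped Tubb6, the rarest isotype, across libraries, though it was the higher of the 2 within each library. In control cells it stood above both Tubb2 genes.

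In Rag1-/- cells the order with the Brg1 shRNA ran Tuba1b (12282), Tubb5 (6196), Tubb4b (2519), Tuba1c (1373), Tuba1a (1372), Tuba4a (493), Tubb2b (133), Tubb3 (127), Tubb2a (43.9) and Tubb6 (7.78). With the control shRNA it ran Tuba1b (16023), Tubb5 (7471), Tubb4b (3198), Tuba1c (1644), Tuba1a (1069), Tuba4a (696), Tubb3 (286), Tubb2b (137), Tubb2a (50.0) and Tubb6 (6.72). Tubb3 stood above Tubb2b with the control shRNA and was nearly level with it with the Brg1 shRNA. In Brg1-deleted cells Tubb3 (27.8) had stood far below Tubb2b (231). The spread over libraries behind these knockdown means is unknown.

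Summed over the family, alpha tubulin came to 20948 normalized reads in Brg1-deleted cells and 35687 in control cells, 1.70-fold lower, a log2 difference of -0.77. Beta tubulin came to 22426 in Brg1-deleted cells and 31891 in control cells, 1.42-fold lower, a log2 difference of -0.51. All 10 genes together made up 0.429% of the normalized reads of Brg1-deleted cells and 0.652% of those of control cells. The alpha family thus differed by more than the beta family. The knockdown alpha sum was 29017 with the Brg1 shRNA and 36484 with the control shRNA, 1.26-fold lower. The beta sum was 26419 with the Brg1 shRNA and 32386 with the control shRNA, 1.23-fold lower. The share of all normalized reads was 0.644% with the Brg1 shRNA and 0.776% with the control shRNA. Per kilobase, the ratio of alpha to beta tubulin mRNA was 1.45 in Brg1-deleted cells and 1.72 in control cells, and 1.72 with the Brg1 shRNA and 1.74 with the control shRNA. These sums come from 1 mean per group and carry no error.

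Within the alpha family, Tuba1b made up 73.4% of the level per kilobase in Brg1-deleted cells and 82.0% in control cells. Tuba1a made up 11.8% in Brg1-deleted cells and 5.15% in control cells, and Tuba4a 2.29% in Brg1-deleted cells and 3.96% in control cells. By these means, the mix of alpha isotypes held less Tuba1b and more Tuba1a in Brg1-deleted cells. Neither gene was called, and reads may have been shared out between Tuba1a, Tuba1b and Tuba1c. As Tuba1b has no values by library, the spread of these shares is unknown. In Rag1-/- cells Tuba1b was 79.1% with the Brg1 shRNA and 82.5% with the control shRNA, and Tuba1a 8.84% with the Brg1 shRNA and 5.50% with the control shRNA.

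The proportions of the major beta isotypes were close in the 4 groups. Tubb5 made up 66.4% of the beta level per kilobase in Brg1-deleted cells and 66.1% in control cells, and Tubb4b 28.9% in both. Tubb3 made up 0.359% in Brg1-deleted cells and 2.35% in control cells, and 1.41% with the Brg1 shRNA and 2.57% with the control shRNA. Tubb2b made up 2.99% in Brg1-deleted cells and 1.74% in control cells, so the largest minor beta isotype was Tubb2b in Brg1-deleted cells and Tubb3 in controls.

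**Figure D4:**
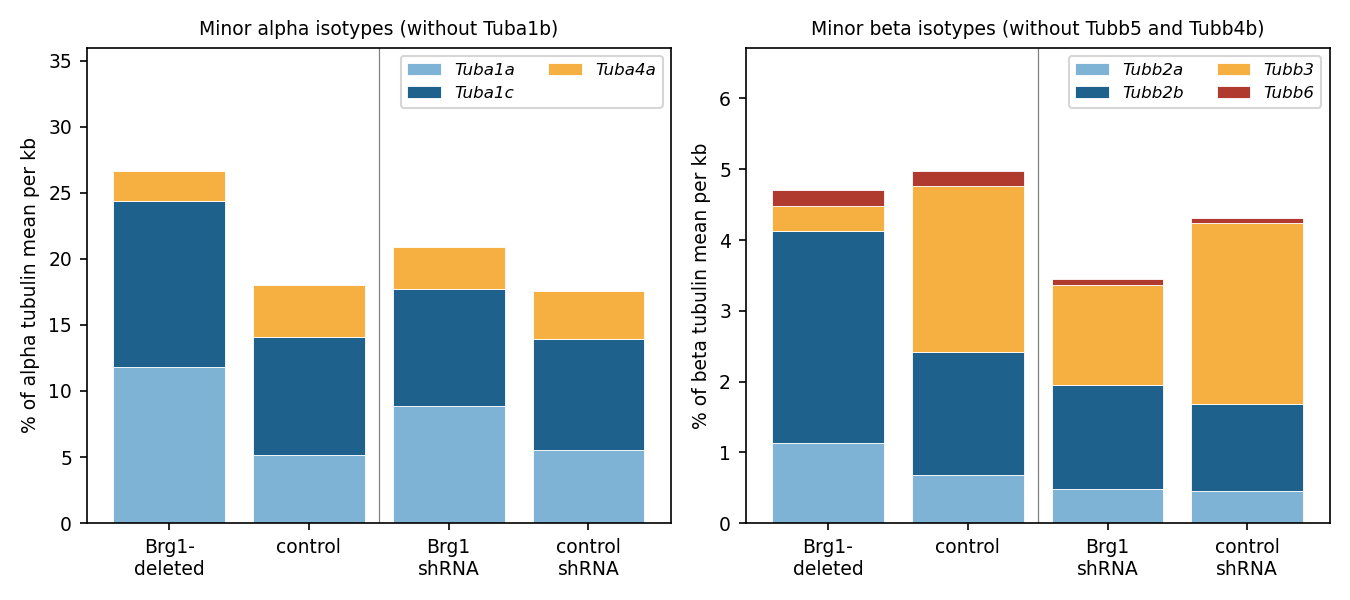
Share of each minor isotype in the alpha family (left) and in the beta family (right), in percent of the summed authors' means per kilobase of exon, for Brg1-deleted, control, Brg1 shRNA and control shRNA cells. Each bar rests on 1 mean per group and starts at 0. Tubb3 takes 0.359% in Brg1-deleted and 2.35% in control cells, and Tuba1a 11.8% in Brg1-deleted and 5.15% in control cells.

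The promoters of the isotypes are shown for the pair that was called lower and for members of either family that were not. RefSeq promoters of assembly GRCm38.p6 were found for 8 of the 10 genes, and the bases 40 to 11 before the RefSeq start are printed 5′ to 3′, with capitals for the letters TATAA, for the letters CCAAT or for the letters GGGCGG. On the other strand these read as TTATA, then as ATTGG, then as CCGCCC. The windows are chr8:123411513-123411542 (plus) for Tubb3, chr13:34078019-34078048 (minus) for Tubb2a, chr1:75219305-75219334 (minus) for Tuba4a, chr15:98934401-98934430 (minus) for Tuba1b, chr2:25224713-25224742 (minus) for Tubb4b and chr17:35838312-35838341 (minus) for Tubb5.
Tubb3: ggcagcctcTTATAAgagggcgcggcggag
Tubb2a: cggtccccgggTATAAaaggcggtgctggg
Tuba4a: ccaccCCGCCCcatggtGGGCGGgctgagc
Tuba1b: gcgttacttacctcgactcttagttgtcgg
Tubb4b: tcgtggcctcgttctgaaagcCCAATcctg
Tubb5: gtaggctttgtctaagacccggggcgcccg

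Tubb3 and Tubb2a had TATAA in this window, the letters of a TATA box, which 4.75% of 32851 RefSeq promoters have there. In Tubb3 the matches on the plus and the minus strand overlap, at bases -31 and -30, and in Tubb2a the match begins at base -29. Tubb3 was called lower and Tubb2a was not. Tuba4a, the other called gene, had none in the 250 bases before its start and had 2 matches to GGGCGG, at bases -35 and -23. Over the 250 bases, TATAA was found in 3 of the 8 members and in 22.8% of all promoters. CCAAT was found in 5 of the 8 and in 33.8% of all, and GGGCGG in 6 of the 8 and in 32.7% of all. Tubb4b had 5 matches to CCAAT. A match is only a run of letters, and nothing about a bound factor was measured here.

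The gene just before Tubb3 on the same strand is Mc1r, which encodes the melanocortin receptor of pigment cells and ends 0.681 kb before Tubb3 begins in the file. The deposited start of Tubb3 lies 129 bases before the RefSeq start, so its window above falls inside the gene as it was counted. The same holds for Tuba1b, whose deposited start lies 175 bases before its RefSeq start. For Tubb3, the stretch that lies before the deposited start and within the RefSeq promoter is chr8:123411303-123411423, plus strand. It is printed with the same capitals.
Tubb3 upstream: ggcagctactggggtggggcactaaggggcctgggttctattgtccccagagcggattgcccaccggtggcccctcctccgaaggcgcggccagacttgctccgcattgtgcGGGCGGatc

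Mc1r had 7.78 (deeper) and 1.16 (shallower) normalized reads in the Brg1-deleted libraries, from 9 and 1 reads, and 27.3 and 22.0 in the control libraries, from 28 and 22 reads. Both Brg1-deleted libraries were below both controls. The log2 fold change was -2.46 (adjusted p = 0.4021 in the authors' deposited table), and in Rag1-/- cells it was -1.22, with means of 20.0 with the Brg1 shRNA and 46.6 with the control shRNA. In human cells, transcripts that run from MC1R into TUBB3 are known, and whether reads of Mc1r and Tubb3 share such transcripts was not tested. On the other side lies Def8, 20.97 kb away, with a mean of 136 in Brg1-deleted cells and 173 in control cells and a log2 fold change of -0.35. Gm20388, a listed gene whose coordinates span Tubb3 on the same strand, had a mean of 1134 in Brg1-deleted cells and 1338 in control cells, a log2 fold change of -0.24. Its libraries overlapped, with 777 and 1491 in the deeper and shallower Brg1-deleted and 1658 and 1019 in the deeper and shallower control libraries. Tubb3, Tuba4a and Tubb4b, the 3 members that overlap another listed gene, are also the 3 that the authors mark as confounded, a word that no source used here defines.

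Of 9455 genes above the median level in both tables, the 3 whose pair of log2 fold changes was nearest to that of Tubb3 were Ubash3a, Gldc and Uchl1. Ubash3a, a dampener of receptor signalling in T cells, had log2 fold changes of -3.23 after deletion and -1.32 after knockdown. In the authors' deposited table its adjusted p was 0.1353 after deletion and 0.0046 after knockdown. Gldc, an enzyme of glycine breakdown, had -3.41 and -1.22, with means of 392 in Brg1-deleted and 4178 in control cells (adjusted p = 0.045 in the authors' deposited table). Uchl1, a deubiquitinase abundant in neurons, had -2.76 and -1.14. It had 78.6 (deeper) and 40.7 (shallower) normalized reads in the Brg1-deleted libraries and 431 and 377 in the control libraries (adjusted p = 2.76e-07 in the authors' deposited table). The likeness rests on 2 fold changes per gene and is a description.

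Because Tubb3 is known as a neuronal gene, 20 other neuronal genes were looked at. After deletion 13 of the 20 were listed, 8 below 0 and 5 above, with a median log2 fold change of -0.30. Of these, 1 was called lower (Uchl1) and 0 higher, where 1.47% of all genes were called. Defining neuronal genes such as Gap43, Nefl, Nefm, Snap25 and Rbfox3 were not listed, and Dcx had a mean of 1.01 in Brg1-deleted cells and 1.96 in control cells. The listed genes summed to 286 and 405 normalized reads in the deeper and shallower Brg1-deleted libraries and to 780 and 612 in the deeper and shallower control libraries, without overlap. Uchl1 and the neurofilament gene Nefh carried this gap. The other 11 summed to 192 and 328 in the Brg1-deleted libraries and to 166 and 157 in the control libraries, higher after deletion. After knockdown 16 of the 20 were listed, 8 below 0 and 8 above, with a median of 0.36. There 0 were called in either direction, where 0.218% of all genes were called. Several of these genes had few reads, so this median is not firm. Snap25 had means of 1.88 with the Brg1 shRNA and 0.282 with the control shRNA, and Rbfox3 0.26 with the Brg1 shRNA and 1.48 with the control shRNA.

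Some markers of other blood cells moved with the deletion groups as well, and their part in the Tubb3 and Tuba4a values was not tested. Of 12 T and innate lymphoid markers, 8 lay below 0 and 4 above. They summed to 299 and 181 in the deeper and shallower Brg1-deleted libraries and to 545 and 591 in the control libraries. Thy1 and Lck were called lower, where 0.742% of all genes were. Thy1, a surface protein of T cells, had means of 42.2 in Brg1-deleted cells and 266 in control cells (adjusted p = 1.07e-05 in the authors' deposited table). Lck, a kinase of T cell receptor signalling, had 62.8 in Brg1-deleted and 195 in control cells (adjusted p = 0.0236 in the authors' deposited table). Without these genes the other 10 summed to 187 and 83.7 in the deeper and shallower Brg1-deleted libraries and to 39.0 and 176 in the control libraries, which overlap. Klrb1c lay furthest the other way, at a log2 fold change of 2.54 (adjusted p = 0.3888 in the authors' deposited table). Of 14 myeloid markers 13 lay below 0. Elane, Prtn3 and Ctsg, proteases of neutrophil precursors, were called lower, again against 0.742% of all genes. Prtn3 had means of 81.4 in Brg1-deleted cells and 443 in control cells. The 12 myeloid markers with 1 solution summed to 1842 and 1125 in the deeper and shallower Brg1-deleted libraries and to 1941 and 3083 in the control libraries. Without these 3 proteases the sums overlapped, with Brg1-deleted libraries at 1784 and 885 and control libraries at 1076 and 2212. Lyz2, the lysozyme of myeloid cells and the most abundant of that list, had means of 2431 in Brg1-deleted cells and 3687 in control cells. Stromal markers, 10 of 11 with 1 solution, summed to 95.9 and 34.9 in the Brg1-deleted libraries and to 119 and 290 in the control libraries. Fn1, which encodes fibronectin, carried this gap, with 34.6 and 20.9 in the Brg1-deleted libraries and 92.6 and 209 in the control libraries. The other 9 summed to 61.3 and 14.0 in the Brg1-deleted libraries and to 26.3 and 81.1 in the control libraries, which overlap. Left out of that sum was Vim, a filament gene that many blood cells also express, with means of 7885 in Brg1-deleted cells and 8881 in control cells. Megakaryocyte and platelet markers summed to 571 and 487 in the Brg1-deleted libraries and to 475 and 543 in the control libraries. Among them the integrin Itgb3 had a mean of 135 in Brg1-deleted cells and 141 in control cells, and Tubb1 had a mean of 1.01 in Brg1-deleted cells and 2.46 in control cells. In Rag1-/- cells 0 markers of these 5 other cell types were called, where 0.218% of all genes were. There 5 of 9 listed T and innate markers lay below 0. Thy1 had means of 136 with the Brg1 shRNA and 204 with the control shRNA, and Lck 427 with the Brg1 shRNA and 273 with the control shRNA, so these genes had opposite signs. The labelled cell type was checked against 13 B lineage markers, and 13 were listed in both tables, 5 below 0 and 8 above after deletion. Cd79a, which carries signals of the B cell receptor, had means of 16583 in Brg1-deleted and 9055 in control cells (adjusted p = 1 in the authors' deposited table). Its partner Cd79b had 20542 in Brg1-deleted and 8045 in control cells and was called higher (adjusted p = 0.0106 in the authors' deposited table). Vpreb1, Igll1 and Rag2 lay below 0, with log2 fold changes of -0.63, -0.27 and -0.21.

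The rest of the microtubule genes were read as lists. Of 110 genes listed in the deletion table, 4 were called, Cct6a and Map7 lower and Scaper and Clip2 higher, where 1.47% of all genes were called. In the knockdown 0 were called, where 0.218% of all genes were. The other tubulin genes, such as gamma and epsilon tubulin, had 8 of 10 listed, 5 below 0 and 3 above, with 0 called and a median of -0.36. Epsilon tubulin Tube1, which acts at centrioles, had a mean of 147 in Brg1-deleted and 208 in control cells. In the knockdown 7 of the 10 were listed, 3 below 0 and 4 above, with 0 called and a median of 0.13.

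Tubulin folding genes lay mostly below 0. Of 21, 18 were below 0 after deletion, 1 was called lower, 0 were called higher and the median was -0.50. After knockdown 17 were below 0, 0 were called and the median was -0.25. All 8 subunits of the CCT ring lay below 0 in both experiments, between -1.23 and -0.40 after deletion and between -0.61 and -0.25 after knockdown. Only 1 of the 8 was called, Cct6a. It had 846 (deeper) and 1073 (shallower) normalized reads in the Brg1-deleted libraries and 2418 and 2072 in the control libraries, without overlap, a log2 fold change of -1.23 (adjusted p = 0.0267 in the authors' deposited table). Prefoldin, which hands chains to the ring, had 5 of 6 subunits below 0 after deletion, with a median of -0.34. The cofactors that join the dimer had 5 of 7 below 0, with a median of -0.05.

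The genes of tubulin mRNA decay did not share this. Of 12, 5 lay below 0 and 7 above after deletion, with a median of 0.06, and 1 was called higher, Scaper. In human cells SCAPER links TTC5, which binds nascent tubulin chains on ribosomes, to the CCR4-NOT deadenylase. Scaper had 570 (deeper) and 441 (shallower) normalized reads in the Brg1-deleted libraries and 170 and 185 in the control libraries, without overlap. The means were 505 in Brg1-deleted and 177 in control cells, 2.85-fold higher (log2 1.51, adjusted p = 0.0087 in the authors' deposited table). With the Brg1 shRNA its mean was 277, against 149 with the control shRNA, a log2 fold change of 0.89 (p = 0.0013, adjusted p = 0.3403 in the authors' deposited table). Ttc5 had means of 569 in Brg1-deleted and 496 in control cells, a log2 fold change of 0.20, and 5 of 10 CCR4-NOT genes lay below 0 in each experiment.

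Genes that modify tubulin tails had 20 of 22 listed, 8 below 0 and 12 above, with 0 called and a median of 0.05. The lowest adjusted p of that list, 0.3057 in the authors' deposited table, was that of Ttll9, a glutamylase, with means of 1.01 in Brg1-deleted and 14.8 in control cells. Genes of microtubule nucleation, 21 of 21 listed, had 13 below 0, 0 called and a median of -0.16. There the augmin subunit Haus2 had the lowest adjusted p, 0.7168 in the authors' deposited table. In the knockdown both lists had 0 called, with medians of 0.03 for modification and -0.09 for nucleation.

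Genes of microtubule dynamics and severing, 30 of 32 listed, had 19 below 0 and 11 above, with a median of -0.09. Map7, which recruits the motor kinesin-1 to microtubules, had 159 (deeper) and 326 (shallower) normalized reads in the Brg1-deleted libraries and 1144 and 756 in the control libraries, a log2 fold change of -1.97 (adjusted p = 0.0206 in the authors' deposited table). Clip2, a protein of growing microtubule ends, had 219 and 259 in the Brg1-deleted libraries and 78.0 and 87.1 in the control libraries, a log2 fold change of 1.54 (adjusted p = 0.0308 in the authors' deposited table). Neither gene overlapped between groups, and they moved in opposite directions. Stmn1, which binds free tubulin dimers, had means of 1250 in Brg1-deleted and 2966 in control cells (log2 -1.25, adjusted p = 0.1255 in the authors' deposited table). In the knockdown the list had 0 called and a median of -0.01. The log2 fold changes there were -0.20 for Map7, 1.06 for Clip2 and -0.38 for Stmn1.

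**Figure D5:**
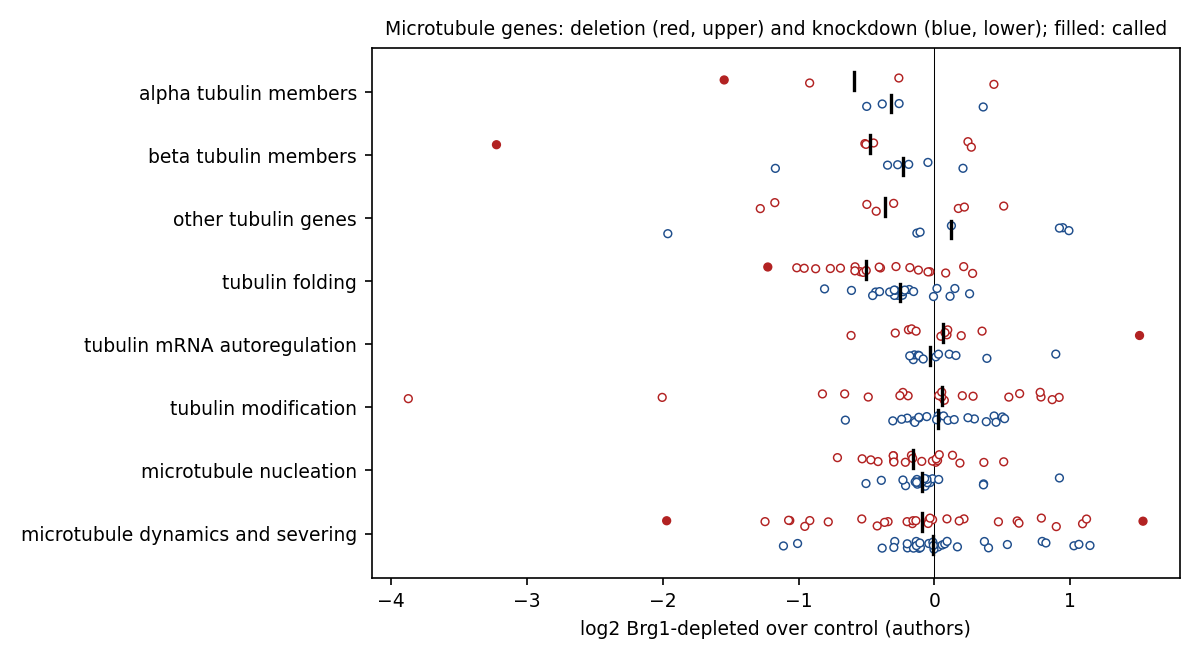
Log2 fold changes of Brg1-depleted over control cells in the authors' deposited tables, for the tubulin members and the other microtubule lists, with deletion in red above and knockdown in blue below. Each point is a gene, filled where called at an adjusted p under 0.05, and bars are list medians. The tubulin folding list lies mostly left of 0, with medians of -0.50 after deletion and -0.25 after knockdown, and 0 genes are filled for the knockdown.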

How the data were processed

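Per the labels' protocols, polyadenylated RNA gave libraries whose strand was marked by dUTP. Whether counting used the strand is not given in the sources used here. CASAVA, RSEM and DESeq, with the mm10 build and no versions, are named in the submitters' processing notes. The 16 ATAC-seq and ChIP-seq samples were not analysed here.

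Per the file headers, the authors deposited 1 mean per group and gene, a signal in normalized reads. The log2 fold change, the p-value and its adjusted form were computed by the authors and deposited beside the means. The exon length, in bases, is also deposited. As the tables hold means, the planned count models were not run.

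The members and gene lists were chosen with earlier results of these data known. Named were the 10 members, Smarca4, up to 4 called genes per list (with none called, the lowest adjusted p), the neighbours of Tubb3, the 3 genes nearest to it by Euclidean distance over both log2 fold changes, and the highest marker of each cell type list. Named after their values were seen were genes overlapping other members, Dcx, Snap25, Rbfox3, Tubb1, Ttc5, Stmn1, Nefh, Fn1 and Klrb1c. So were S100a8, S100a9 and the macrophage and B lineage genes outside the rule.

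Each mean of the deletion table was split into whole reads of 2 libraries, within a tolerance of 6e-05. A solution was found for 100% of the values, and a single one for 97.2% in Brg1-deleted and 97.3% in control cells. Random values of up to 100 had a solution in 2.43% and 2.9%. Larger random values were not tried, so these rates do not cover means as large as those of Tuba1a, Tuba1c and Tuba4a. In the knockdown, 3 libraries were solved only for means up to 20. Libraries are named by depth, as they carry no replicate number.

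Recovered reads were also fitted in limma 3.58.1 (R 4.3.3, with its trend option) as log2 values (0.5 added, then divided by size factors), leaving out genes whose mean was under 1. The split and the fit were tested on simulated data, in which all genes had the same added spread between libraries. That test does not show how the fit behaves on genes that vary more. Promoters are RefSeq's, GRCm38.p6. Python 3.11.15, numpy 2.4.6, pandas 2.3.3 and matplotlib 3.10.9 did the rest. Alternatives were scaling to the column sum, pseudocounts of 1 and 10, a minimum of 10 CPM, an adjusted p of 0.1, a 1.5-fold minimum, no length correction and leaving out each library.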

Additional observations from a re-analysis of the deposited data

How the results depend on the processing

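The 2 tubulins called after deletion became 0 with limma on the recovered reads, and between 0 and 1 when each library was left out, where 7 of the 10 could be fitted. Both called genes were among these 7, and limma on all libraries gave them an adjusted p of 0.12 (Tubb3) and 0.13 (Tuba4a). Why limma and the authors' test differ was not tested. The median log2 fold change after deletion was -0.48 and ran between -0.080 and 0.17 when each library was left out, over the 7 resolved members alone, which lack the 3 most abundant. With all libraries, an alternative chosen after seeing the data, these 7 had a median of -0.26. The knockdown median of -0.26 became -0.22 scaled to the column sum, -0.26 with a pseudocount of 1, -0.26 with a pseudocount of 10 and -0.31 for the 8 members of at least 10 CPM. Without length correction, Tuba1b made up 73.7% of alpha tubulin in Brg1-deleted and 81.8% in control cells, and 79.4% with the Brg1 shRNA and 82.3% with the control shRNA. Tubb5 then made up 76.2% of beta tubulin in Brg1-deleted and 76.0% in control cells, and 77.9% with the Brg1 shRNA and 76.6% with the control shRNA. All 20 single fold changes of members kept their direction under column-sum scaling and a pseudocount of 10. Leaving out libraries turned the sign of Tubb2a (-0.02) and Tubb2b (-0.01) without the deeper Brg1-deleted library, and of Tubb6 without the shallower control (0.41) or the shallower Brg1-deleted library (0.17). Tubb3 ran between -3.57 and -2.94 and Tuba4a between -1.82 and -1.32.

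No paired analysis was possible because the columns are group means and the recovered libraries carry no replicate number. The knockdown means hide their libraries, so their spread is unknown.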
